A study of Bos taurus with 40 samples.

Results

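The genes described here are 100 bovine genes whose median level was higher in the jejunal epithelium of feed-restricted bulls than in that of bulls fed ad libitum, and lower again in previously restricted bulls once full feeding had resumed. With 10 animals in a group their values overlapped widely, and limma, fitted across all genes at a false discovery rate under 0.001, called 0 of them in each of 4 comparisons. At that rate edgeR's likelihood ratio test and DESeq2 on recovered reads each called 1 member in RES Period 2 against RES Period 1, a comparison that the rule used. The members were chosen from 11324 genes, of the 13781 genes listed for at least 1 period. Those 11324 were listed for both periods with a mean of at least 5 CPM over the 40 libraries. CPM is the reads of a gene relative to the reads of its library, after the authors' scaling between libraries. For each gene the median of log2(CPM + 1) was taken in every group, and the members are the 100 genes for which the smaller of 2 differences was largest. The first difference was RES Period 1 minus ADLIB Period 1 and the second was RES Period 1 minus RES Period 2. Both use the same RES Period 1 libraries, so a gene that was high in those 10 animals was favoured on both counts.

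Holstein Friesian bulls were either restricted (RES) for 125 days, with a target gain of 0.6 kg per day, or fed without restriction (ADLIB), which made up Period 1. The bulls not slaughtered at the end of Period 1 were then all fed ad libitum for 55 days, which made up Period 2. The ration was the same in every group, at 70% concentrate and 30% grass silage, and only the amount offered differed. RNA sequencing was carried out on 10 bulls of each group at the end of each period, with different bulls at either time, and ADLIB Period 2 is the group that the rule did not use.

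The jejunum is the main site of nutrient absorption in the small intestine. Its lining is renewed continuously from stem cells in the crypts, and holds absorptive enterocytes together with mucus-secreting, hormone-secreting and immune cells. Intestinal mass and cell turnover are known to follow feed intake, and growth that runs above normal after a period of restriction is known as compensatory growth. In scraped tissue, fewer cells of a type and less RNA per cell cannot be told apart. The files give Ensembl identifiers without gene names, so the members are described by their rank under the rule, what each encodes is not given, and the tissue was not checked against marker genes.

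Recovered reads on the listed genes ranged from 4431390 to 8295900 per library. A library usually had between 1 and 29 listed genes at 0, but 5 libraries had more. These were ADLIB Period 1 replicate 4 with 42 genes at 0, RES Period 1 replicate 6 with 87, ADLIB Period 2 replicate 10 with 42, RES Period 2 replicate 1 with 585 and RES Period 2 replicate 2 with 39. The members were measured with a median of 21 to 8981 reads across libraries, and the lowest single value was 0 reads. Counting error alone is therefore larger for the sparsest members. The values of the 2 periods were scaled separately by the authors, and this applies to every level set across periods below. With a single scaling over all libraries, 96 of the 100 members were chosen again. With group means in place of medians 50 were chosen again. Without 1 animal of a group whose median the rule used, between 72 and 87 were. Without 1 animal of ADLIB Period 2, which entered the rule only through the mean CPM, between 98 and 100 were.

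The first difference, RES Period 1 over ADLIB Period 1, ranged from 0.47 to 3.42 over the members on the log2 scale, with a median of 0.67. The second, RES Period 1 over RES Period 2, ranged from 0.47 to 1.55, with a median of 0.68. Over all 11324 genes the medians were -0.01 and -0.03. These 2 differences chose the members and are given as a description, without a test. The edge of the list was not marked by a gap. The smaller difference was 0.478, 0.474, 0.473, 0.471 and 0.470 for the members ranked 95 to 99, 0.470 for the member ranked 100, and 0.469, 0.468, 0.468, 0.468 and 0.467 for the 5 genes ranked 101 to 105.

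**Figure D1:**
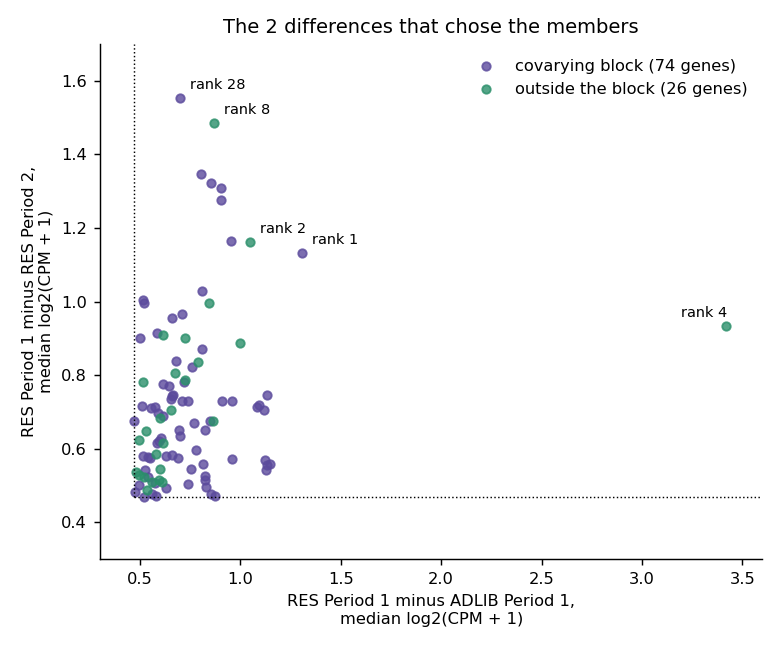
Each point is 1 of the 100 members, with the difference of medians RES Period 1 minus ADLIB Period 1 on the x axis and RES Period 1 minus RES Period 2 on the y axis, both on the log2(CPM + 1) scale. The dotted lines mark the smallest value taken, 0.47, against which many members lie, while rank 4 stands apart at 3.42 on the x axis.

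ENSBTAG00000010423 held rank 1. It was measured at 0.677 to 17.8 CPM (median 4.93) in ADLIB Period 1, 3.03 to 22.7 CPM (median 13.8) in RES Period 1, 2.00 to 13.9 CPM (median 9.66) in ADLIB Period 2 and 0.295 to 18.1 CPM (median 5.69) in RES Period 2. The median in RES Period 1 was 2.80-fold that in ADLIB Period 1, 2.43-fold that in RES Period 2 and 1.43-fold that in ADLIB Period 2. All 4 groups overlapped, and the range within each group exceeded the difference between the medians.

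ENSBTAG00000003222, at rank 2, had narrower groups. It was measured at 15.1 to 46.6 CPM (median 25.7) in ADLIB Period 1, 33.2 to 125 CPM (median 54.1) in RES Period 1, 17.4 to 47.8 CPM (median 31.0) in ADLIB Period 2 and 16.1 to 37.4 CPM (median 23.6) in RES Period 2. The lowest RES Period 1 library lay above the median of each of the other groups but below their highest libraries. Against ADLIB Period 2 the ratio of medians was 1.74.

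On the log2(CPM + 1) scale, the members with the largest differences between RES Period 1 and RES Period 2 were ENSBTAG00000011266, at rank 28, and ENSBTAG00000013960, at rank 8. The gene at rank 28 was measured at 1.93 to 15.8 CPM (median 10.7) in RES Period 1 and at 0.590 to 13.5 CPM (median 3.27) in RES Period 2, a ratio of medians of 3.26. In RES Period 2, 5 libraries lay under 2 CPM, so the median fell between a low and a high set of animals. It ranged from 1.22 to 19.5 CPM (median 6.07) in ADLIB Period 1 and from 1.25 to 12.5 CPM (median 8.00) in ADLIB Period 2, so that low animals occurred in every group.

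The gene at rank 8 was measured at 26.8 to 172 CPM (median 51.3) in RES Period 1 and at 12.3 to 81.5 CPM (median 17.7) in RES Period 2, a ratio of medians of 2.90. In ADLIB Period 1 it ranged from 9.35 to 58.1 CPM (median 27.6) and in ADLIB Period 2 from 11.5 to 86.8 CPM (median 26.6). The lowest RES Period 1 animal was thus close to the median of both ADLIB groups.

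The member ranked 10 was the single gene for which every RES Period 1 library lay above every RES Period 2 library, a pattern held by 0.00883% of the 11324 genes. It was measured at 11.1 to 79.2 CPM (median 15.7) in RES Period 1 and at 2.05 to 10.7 CPM (median 7.39) in RES Period 2. It ranged from 5.62 to 21.4 CPM (median 8.29) in ADLIB Period 1 and from 5.12 to 24.8 CPM (median 12.3) in ADLIB Period 2, and both groups overlapped RES Period 1. For 0 members did every RES Period 1 library lie above every ADLIB Period 1 library, or above every ADLIB Period 2 library, and the share over all 11324 genes was 0.0% in both cases.

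For some members the median hid an uneven spread. The member ranked 4, which had the largest first difference of 3.42, was either nearly silent or clearly present in a given bull. It was above 5 CPM in 4 of 10 bulls in ADLIB Period 1, in 6 of 10 in RES Period 1, in 5 of 10 in ADLIB Period 2 and in 6 of 10 in RES Period 2. Its median moved from 0.490 CPM in ADLIB Period 1 to 15.1 CPM in RES Period 1 as the number of bulls above 5 CPM went from 4 to 6. The member ranked 83 was uneven too, with 0.00 to 90.5 CPM in ADLIB Period 1, 0.245 to 266 CPM in RES Period 1 and 0.00 to 266 CPM in RES Period 2. In ADLIB Period 2 all 10 libraries lay between 0.00 and 3.75 CPM.

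**Figure D2:**
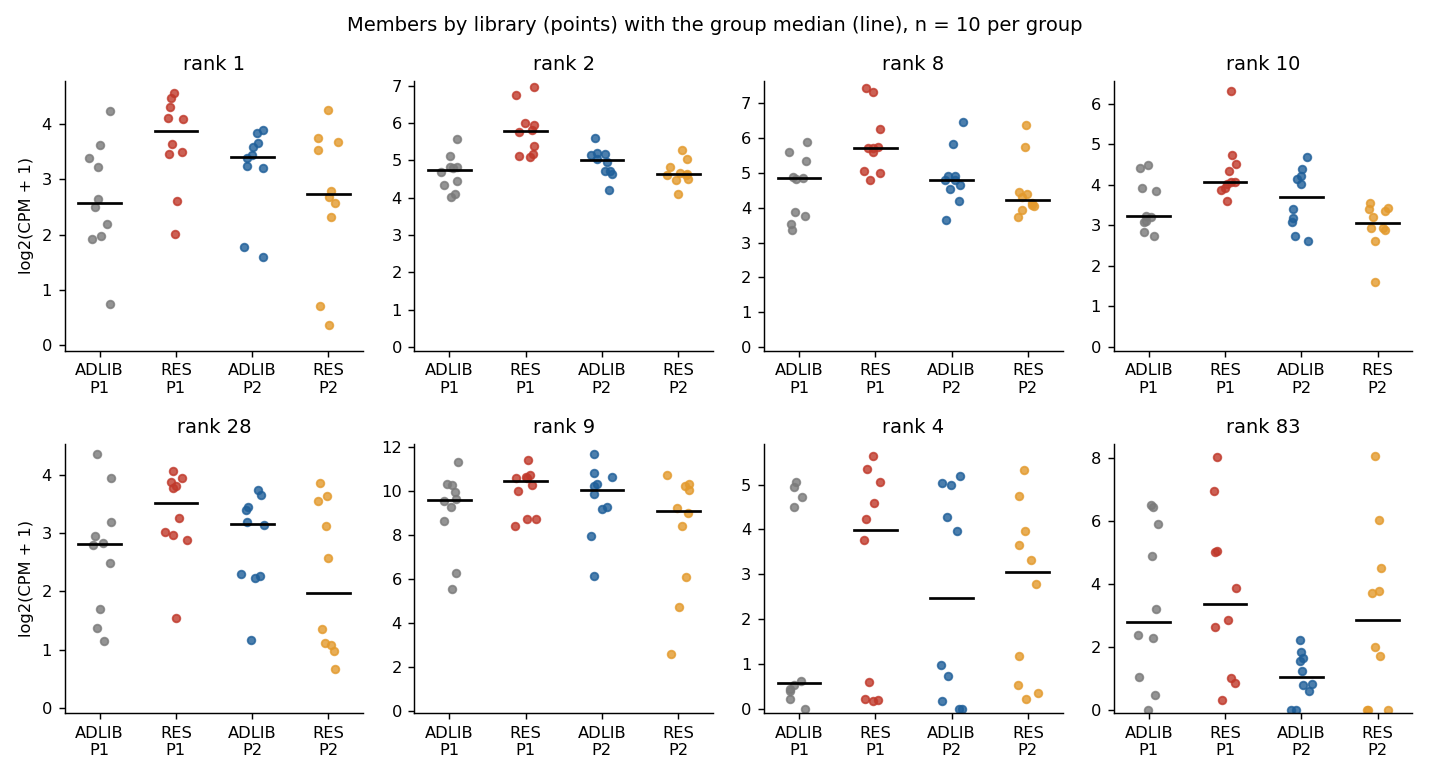
Values of 8 members on the log2(CPM + 1) scale in each library (points), with the group median (line) and 10 libraries in each group. The groups of rank 1 overlap throughout, all RES Period 1 libraries of rank 10 lie above those of RES Period 2, and the libraries of rank 4 fall into a low and a high set in every group.

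The members were next compared with each other across animals. Each gene's group mean was subtracted from log2(CPM + 1), so that only differences between bulls of the same group were left, and members were clustered by their correlation over the 40 libraries. The median correlation between pairs of members was 0.369, against -0.0037 between pairs of all 11324 genes. At a cluster correlation of 0.4 the members formed 1 block of 74 genes, with a median pair correlation of 0.618, and 26 members remained outside it, with a median of 0.034. The 26 comprised clusters of 7, 5 and 3 genes, 2 pairs and 7 single genes. With a cut of 0.5 the largest cluster held 59 genes, and with 0.3 it held 74. Within single groups the block's median pair correlation was 0.688 in ADLIB Period 1 and 0.271 in RES Period 1. It was 0.563 in ADLIB Period 2 and 0.799 in RES Period 2. In ADLIB Period 2 without replicate 10 it was 0.268. The pairs share libraries, depth and scaling, so these correlations are given as a description.

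The block included 13 of the first 20 members and 8 of the 10 members with a mean of 100 CPM or more. CPM is not corrected for gene length and is given here for the reads behind each value. The member ranked 9, of the block, was measured at 46.3 to 2588 CPM (median 772) in ADLIB Period 1, 337 to 2758 CPM (median 1404) in RES Period 1, 70.5 to 3341 CPM (median 1069) in ADLIB Period 2 and 5.02 to 1704 CPM (median 559) in RES Period 2. In the 3 groups other than RES Period 1 it thus had animals far below the rest, the lowest of which stood for 17 reads. The members ranked 11 and 25 had ratios of medians of 1.73 and 1.63 for RES Period 1 over ADLIB Period 1, and of 1.80 and 1.65 over RES Period 2.

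Members varied more between bulls of a group than genes in general. Large differences between medians of 10 animals are reached more easily by variable genes, so the rule favoured such genes. The spread is therefore given as a description. The median within-group standard deviation on the log2 scale was 0.807 for the 100 members, 0.882 for the block and 0.606 for the 26 genes outside it, against 0.405 for all 11324 genes. The same animals were low for most of the block. As a summary, each gene's mean over 40 libraries was subtracted and the median over the block was taken in each library. This level ranged from -1.82 to 0.958 (median -0.146) in ADLIB Period 1, from -0.153 to 0.805 (median 0.603) in RES Period 1, from -1.0 to 0.470 (median 0.303) in ADLIB Period 2 and from -2.69 to 0.4663 (median 0.0526) in RES Period 2. At or above the lowest RES Period 1 library stood 5 of 10 ADLIB Period 1 libraries, 8 of 10 ADLIB Period 2 libraries and 6 of 10 RES Period 2 libraries. The highest library of each group thus lay between 0.4663 and 0.958, while the lowest lay near -1.0 or further down in the 3 groups other than RES Period 1.

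The 4 lowest libraries of the block were among the 5 with at least 30 listed genes at 0. These were RES Period 2 replicate 1 (-2.69), ADLIB Period 1 replicate 4 (-1.82), RES Period 2 replicate 2 (-1.46) and ADLIB Period 2 replicate 10 (-1.0). Their part in the result was not tested. Without the 5 libraries the block's median level was -0.0757 in ADLIB Period 1 (9 libraries), 0.677 in RES Period 1 (9 libraries), 0.352 in ADLIB Period 2 (9 libraries) and 0.239 in RES Period 2 (8 libraries), and the median pair correlation within the block was 0.378 in place of 0.618. The rule applied to the remaining 35 libraries chose 61 of the 100 members again, of which 42 were in the block and 19 outside it. With all 40 libraries, 7.93% of the 11224 other genes correlated with the block's level at 0.7 or more, and 7.21% at -0.7 or less. Without the 5 libraries these shares were 2.51% and 0.232%.

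The 26 genes outside the block are given next. Their level, taken in the same way, ranged from -0.503 to 0.175 (median -0.100) in ADLIB Period 1, from 0.287 to 0.968 (median 0.486) in RES Period 1, from -0.457 to 0.163 (median -0.213) in ADLIB Period 2 and from -0.534 to 0.157 (median -0.204) in RES Period 2. All 10 RES Period 1 libraries lay above the other 30, and without the 5 libraries the remaining 9 did too, with a range from 0.287 to 0.651. Since these genes were chosen for high values in the same RES Period 1 libraries, their separation from ADLIB Period 1 and RES Period 2 is a description. The separation from ADLIB Period 2 shares the RES Period 1 libraries with the rule. The 26 were also left out of the block for their low correlation. A median over genes that vary separately spreads less between libraries, so the way this set was drawn favours separation of its level. Gene by gene, 0 of the 26 had every RES Period 1 library above every ADLIB Period 1 or every ADLIB Period 2 library. For 1 of them every RES Period 1 library lay above every RES Period 2 library.

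**Figure D3:**
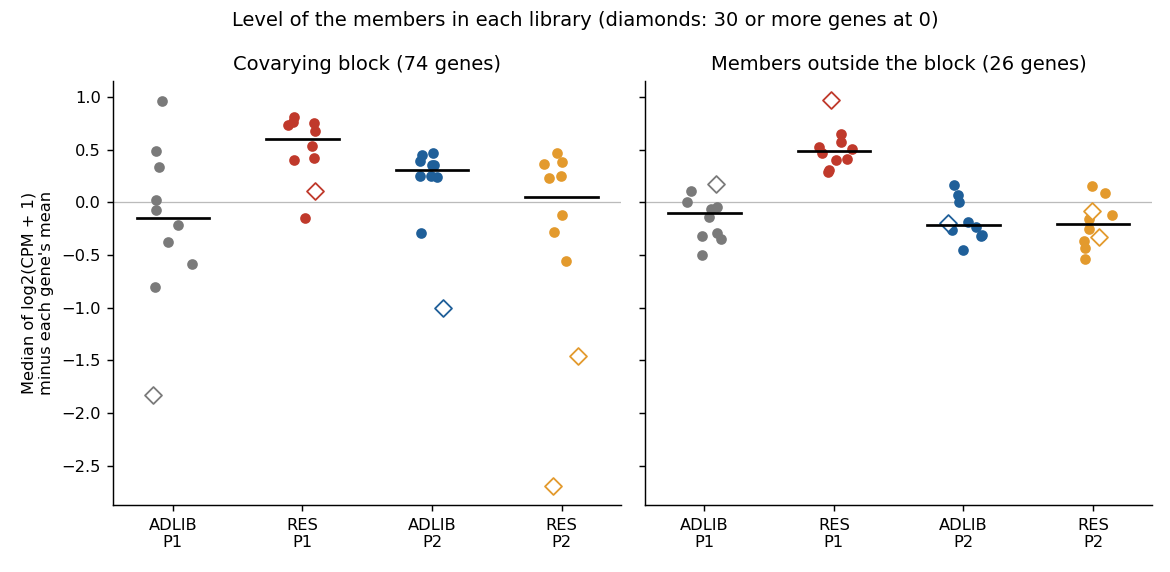
Level of the 74 genes of the block (left) and of the 26 genes outside it (right) in each library, as the median over genes of log2(CPM + 1) minus the gene's mean, with the group median as a line. Diamonds are the 5 libraries with 30 or more genes at 0; in the block 4 of them are the lowest libraries, while outside the block RES Period 1 lies above the 3 other groups.

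The second cluster, of 7 genes, held ranks 2, 8, 49, 67, 70, 74 and 82. RES Period 1 replicate 6 was the highest RES Period 1 library for 5 of the 7 and the second highest for the other 2. It was also the highest for all 3 genes of the fourth cluster, ranks 7, 10 and 20. This library had 87 listed genes at 0, and its part in the result was not tested. Without it the median differences of the second cluster were 0.56 from ADLIB Period 1 and 0.57 from RES Period 2, compared with 0.60 and 0.65 with it. Those of the fourth cluster were 0.84 and 0.87, compared with 0.84 and 0.90. A median of 10 libraries moves little when 1 is dropped, and the clusters were drawn with this library included. These values therefore cannot show how much it contributed. In the third cluster, ranks 44, 45, 78, 88 and 91, the highest RES Period 1 value came from another library for all 5 genes.

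**Figure D4:**
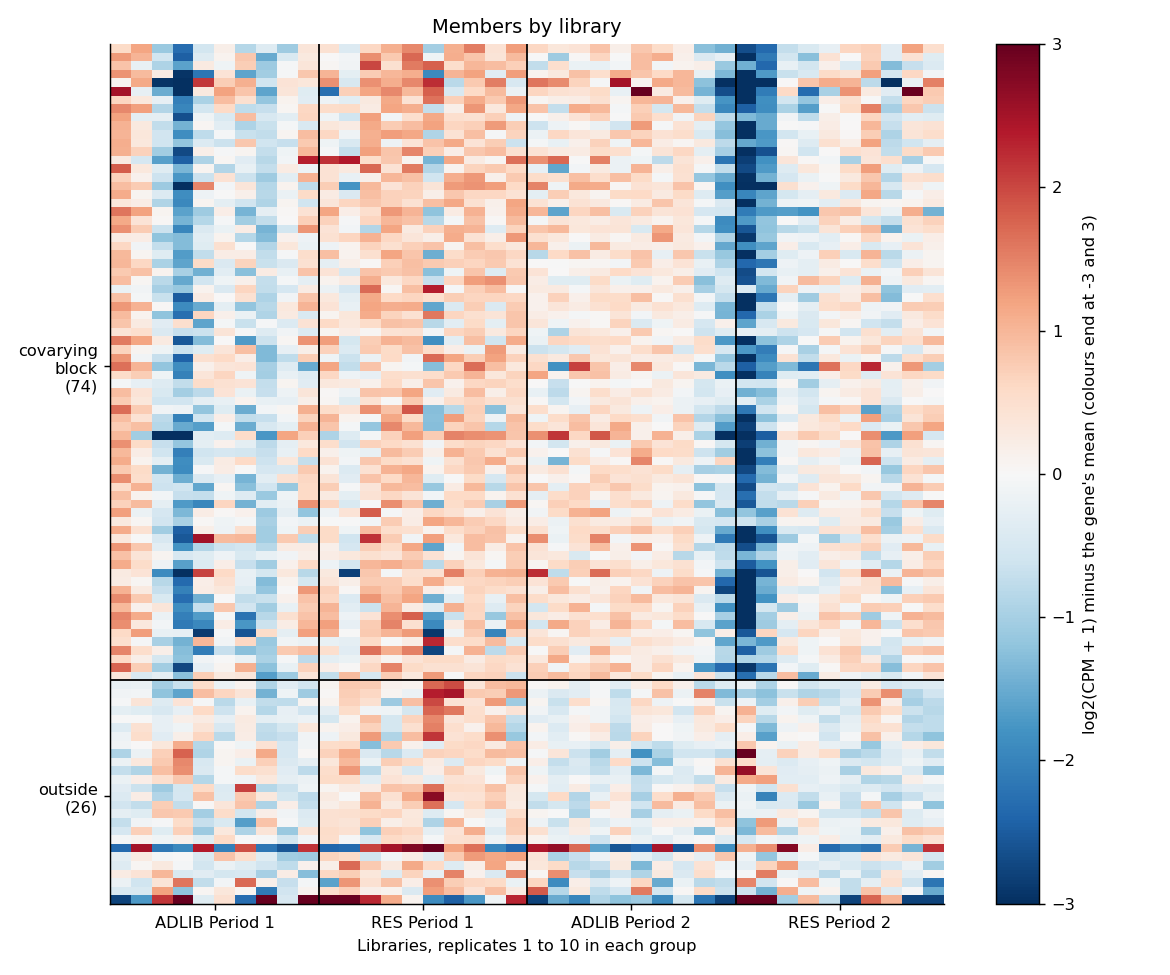
Log2(CPM + 1) minus the gene's mean for the 100 members (rows) in the 40 libraries (columns, replicates 1 to 10 within each group), with the block of 74 genes above the line and the 26 others below it. ADLIB Period 1 replicate 4 and RES Period 2 replicates 1 and 2 form low columns through the block, and the second cluster, first below the line, is high in RES Period 1 replicate 6 and low in RES Period 2 replicate 2.

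ADLIB Period 2 gives the members' level in bulls that were never restricted, sampled at the same time as the re-alimented ones. Its median was below that of RES Period 1 for 98 of the 100 members, compared with 44.0% of the 11324 genes. As the rule selected high RES Period 1 values, the choice of members itself favours a count above the background, and no test was made. The difference RES Period 1 minus ADLIB Period 2 had a median of 0.39 over the members, with a range from -0.03 to 2.33, and of -0.03 over all genes. It was smaller than the medians of 0.67 and 0.68 for the differences that the rule used. Those 2 were made large by the choice of members, so a smaller value here follows in part from the rule. The 2 members whose ADLIB Period 2 median was not below on the log2 scale were rank 61, with medians of 8.16 in ADLIB Period 2 and 8.13 in RES Period 1, and rank 100, with 3.41 in both groups.

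The block and the other members stood differently against this group. In the block the median difference was 0.32, and 16 of 74 genes reached 0.47, the size that the rule required of both other differences. Outside the block it was 0.65, and 18 of 26 genes reached 0.47. Among all 11324 genes, 229 reached it, and the choice of genes high in RES Period 1 favours both counts of members. For the block, ADLIB Period 2 lay between RES Period 1 and the 2 low groups, with a median of 0.38 above ADLIB Period 1 and of 0.37 above RES Period 2. For the 26 other genes it lay near the low groups, with a median of 0.09 above ADLIB Period 1 and of 0.01 above RES Period 2. The ADLIB Period 2 median was at or below the higher of the 2 low groups for 6 of 74 genes in the block and for 15 of 26 outside it, compared with 64.1% of all 11324 genes. The rule chose members high in RES Period 1 and low in ADLIB Period 1 and RES Period 2. A group it did not use is thereby favoured to lie between them, and the 11324 genes as a whole were not so chosen. The clusters were drawn from the same libraries, so the contrast between them is also a description.

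Single genes showed the same range of positions. The member ranked 5, of the block, had medians of 6.12 CPM in ADLIB Period 1, 12.4 CPM in RES Period 1, 6.12 CPM in ADLIB Period 2 and 4.39 CPM in RES Period 2. The member ranked 14, a single gene outside the block, had medians of 26.2, 46.0, 25.6 and 25.4 CPM in the same order, so that 3 groups were alike in their median and RES Period 1 alone was higher. Its groups nevertheless overlapped, with 19.3 to 73.4 CPM in RES Period 1 and 14.9 to 52.8 CPM in ADLIB Period 2. All 5 genes of the third cluster were lower in ADLIB Period 2 than in ADLIB Period 1 by their medians, among them rank 45 with 2.72 and 4.96 CPM.

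**Figure D5:**
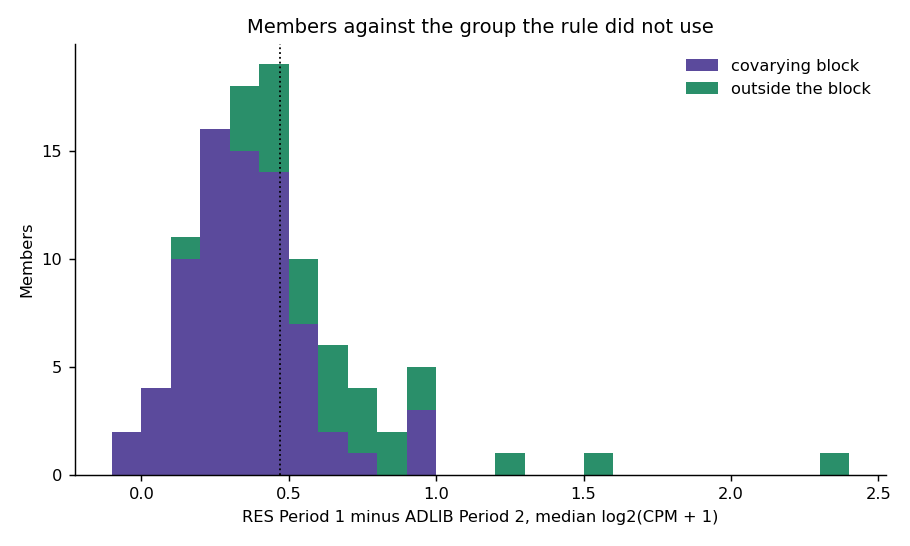
Number of members by the difference of medians RES Period 1 minus ADLIB Period 2 on the log2(CPM + 1) scale, with the block and the other members stacked. The dotted line is at 0.47, the smallest value the rule took for its own differences. At or above it lie 34 of the 100 members, 16 from the block and 18 from outside it, compared with 229 of the 11324 genes.

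Whether re-alimented bulls differed from continuously fed bulls at the end of Period 2 was tested across all 13605 genes of that period with limma on log2(CPM + 1). With a false discovery rate below 0.001 as the threshold, 0 genes were called (0.0%), with 280 at an unadjusted p under 0.05. For comparison, at the same threshold 0 genes were called by edgeR's quasi-likelihood and likelihood ratio tests and by DESeq2. The lowest adjusted p of a member was 0.990. At an unadjusted p under 0.05, 1 member was higher in RES and 5 were lower, against 0.875% and 1.18% of all genes. The median difference was -0.40 over the members and -0.01 over all genes, and it was -0.18 without RES Period 2 replicate 1 and -0.15 without the 3 Period 2 libraries that had 30 or more genes at 0. RES Period 2 was used by the rule, which favoured genes low in it, so the sign of this median is fixed in part by the choice of members.

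All 74 genes of the block had a lower mean in RES Period 2 than in ADLIB Period 2, with a median difference of -0.48, against -0.01 over all genes. Without RES Period 2 replicate 1 it was 66 of 74 genes and -0.26, and without the 3 Period 2 libraries with 30 or more genes at 0 it was 66 of 74 and -0.19. Of the 26 other members 12 had a higher mean, and the median difference was -0.02. The rule favoured genes low in RES Period 2, and the block's genes vary together over these libraries. Its 74 genes are therefore not separate observations. The share of all genes with a lower mean was not counted. The member ranked 10 had means of 2.98 in RES Period 2 and 3.65 in ADLIB Period 2, a difference of -0.66 (SE 0.28), and in limma's test the adjusted p was 0.990. The number of members at an unadjusted p under 0.05 depended on single animals. It was 6 with all animals, 20 without ADLIB Period 2 replicate 10, 18 without RES Period 2 replicate 7, 10 without RES Period 2 replicate 6 or 10, and 2 without RES Period 2 replicate 2. With the digit in the library codes, whose meaning the labels do not give, as a factor it was 3. No member passed the adjusted threshold in any of these fits.

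The difference between periods was tested in the ADLIB bulls across the 13509 genes listed for both periods. Values were scaled together over the 40 libraries. The 2 groups were different bulls, so growth, age and time of slaughter cannot be told apart. Again limma called 0 genes at that false discovery rate (0.0%), with 684 at an unadjusted p under 0.05, and the 3 count tests called 0 at that threshold. The lowest adjusted p of a member was 0.865. At an unadjusted p under 0.05, 4 members were higher in ADLIB Period 2 and 2 were lower, against 1.90% and 3.17% of all genes, and this number of 6 members became 13 without ADLIB Period 2 replicate 10 and 10 without ADLIB Period 1 replicate 1. By their means 87 of the 100 members were higher in ADLIB Period 2, with a median difference of 0.25, against 0.00 over all genes. That median was 0.11 without ADLIB Period 1 replicate 4, and 0.14 in edgeR's quasi-likelihood fit of the recovered reads. ADLIB Period 1 was a group the rule chose members to be low in, which favours this count of 87. The share of all genes with a higher mean was not counted. The 4 higher members were ranks 27, 33, 98 and 100, all in the block.

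The 2 lower members were ranks 45 and 83. Rank 83 had means of 1.08 in ADLIB Period 2 and 3.33 in ADLIB Period 1 on the log2 scale, a difference of -2.25 (SE 0.75), with an adjusted p of 0.865 in limma's test. At the unadjusted threshold it was also the 1 member higher in RES Period 2 than in ADLIB Period 2, by 1.90 (SE 0.83), with an adjusted p of 0.990. Both values rest on the 10 low ADLIB Period 2 libraries given above, and the 2 comparisons share them.

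The 2 comparisons that chose the members were fitted over all genes in the same way, and limma called 0 genes in either at that false discovery rate. At an unadjusted p under 0.05, 45 members were higher in RES Period 1 than in ADLIB Period 1, where 1.96% of all genes were, and 0 were lower, where 1.65% of all genes were. In RES Period 2 against RES Period 1, 63 members were lower, where 3.89% of all genes were, and 0 were higher, where 1.78% of all genes were. These counts follow from the rule. Over all genes 494 and 765 passed the unadjusted threshold. With the same limit on the false discovery rate, the likelihood ratio test called 0 and 3 genes, and DESeq2 called 2 and 3. In RES Period 2 against RES Period 1, 1 of the 3 genes was a member in both tests.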

How the data were processed

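Jejunal epithelium of 40 bulls was sequenced, 10 in each of 4 groups. The authors trimmed and aligned reads to UMD3.1, counted reads on protein-coding genes with HTSeq and scaled them with edgeR, and the deposited values are TMM-scaled CPM, a signal computed separately for each period. Whole reads were recovered from the step that a single read makes in each library, for 100% of values within 0.1 read. Titles and characteristics gave the groups; the labels' protocols give other animal numbers and another tissue. Each library was counted as 1 animal, and no 2 libraries of a group agreed within sampling noise.

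Tests were made on log2(CPM + 1) by limma (3.58.1, R 4.3.3), with a trend of variance on intensity and Benjamini-Hochberg adjustment over all genes, 2-sided. Comparisons between periods used 1 TMM scaling of the recovered reads over 40 libraries. edgeR 4.0.16 and DESeq2 1.42.0 on recovered reads were alternatives. The fits were also run on simulated reads with 200 changed genes. Those reads were drawn separately for each gene with a common spread, unlike the correlated and more variable members here. The simulation therefore says little about these data. The members and lists were chosen with earlier results of these data known. The clusters, the mark of 30 genes at 0 and the threshold of 0.1 for count tests were chosen after seeing the values.

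Genes were to be named as the first 20 members, those at the edge of the list and those in lists of pathways and cell markers. As identifiers could not be paired with names, the lists, markers and promoters were not used here. Identifiers are printed for the 2 highest ranks and the 2 largest second differences, and other members named by rank were chosen after their values were seen.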

Additional observations from a re-analysis of the deposited data

Results flagged for a closer look

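In each group of 10 libraries, the gap between the most extreme library and its neighbour was divided by the range of the group and set against Dixon's 95% critical value. Of 44 groups tested 5 exceeded it, and chance flags about 1 in 20 groups. The level of the block of 74 covarying members in ADLIB Period 2 had a ratio of 0.482, through replicate 10, the lowest library. The number of genes at 0 had a ratio of 0.831 in RES Period 1 through replicate 6 with 87 genes, of 0.756 in ADLIB Period 2 through replicate 10 with 42 genes, and of 0.937 in RES Period 2 through replicate 1 with 585 genes. The member ranked 28 had a ratio of 0.528 in RES Period 1, where replicate 6 was lowest at 1.93 CPM. Replicate 10 of ADLIB Period 2 and replicate 6 of RES Period 1 thus each stood apart in 2 measures.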

How the results depend on the processing

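Of 250 alternative values 228 stayed within the limits set for them, 22 moved and 0 reversed. The limit for counts was wide, as 68 of 100 members chosen again at a minimum mean of 10 CPM still counted as unchanged. Counts could not reverse, and many of the values were 0 calls set beside 0 calls. The tally therefore says little about stability. Of the 100 members, 50 were chosen again with group means in place of medians and 61 without the 5 libraries with 30 or more genes at 0 (added after seeing the data). Leaving out 1 animal of a group whose median the rule used left between 72 and 87. Leaving out 1 of ADLIB Period 2, which could change little, left between 98 and 100. Under all 40 such choices 38 members were chosen, 28 in the block and 10 outside it. The median pair correlation was 0.183 without the 5 libraries. The difference RES Period 1 minus ADLIB Period 2 stayed near 0.39.

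At a false discovery rate under 0.001 limma called 0 genes in every comparison, also without any 1 animal (0 to 0). For RES Period 2 against ADLIB Period 2, the likelihood ratio test at 0.1 called 1 gene, which was not a member. For ADLIB over time DESeq2 at 0.1 called 14, of which 1 was a member. For RES Period 1 against ADLIB Period 1, the likelihood ratio test at 0.1 called 15 (5 members), and DESeq2 called 2 at 0.001 (0 members) and 16 at 0.1 (5 members). For RES over time limma called 6 and the quasi-likelihood test 4 at 0.1, each with 2 members, while the likelihood ratio test called 3 and 24 and DESeq2 3 and 29 at 0.001 and 0.1, each with 1 and 5 members. Both comparisons were used by the rule. The cause was not tested.

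Same-numbered animals were not treated as pairs, as not every correlation was over 0.1 (mean -0.094, -0.0064, -0.112 and 0.167 over the 4 comparisons). Animals correlated best with their own number in at most 2 of 10 cases. For RES over time, 7 of 10 were over 0.1, and the mean for other numbers was -0.0059. Asking every correlation to pass 0.1 cannot exclude shared structure. With a replicate block limma called 0 genes in each comparison, and the number at an unadjusted p under 0.05 went from 765 to 1157 for RES over time. Depth limits the sparsest members, where a median of 21 reads leaves counting error beside the spread between animals.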
